A study of Mus musculus with 14 samples.

Results

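Gene expression of germinal center B cells was compared with that of naive, plasma and memory B cells on Affymetrix Mouse 430 2.0 arrays of amplified RNA. The germinal center cells were the 3 arrays that carry this title, of 14 in the series, and the others were 3 naive, 4 plasma and 4 memory arrays. All cells came from spleens of male C57Bl/Ka mice, and every sort left out cells with the T cell markers CD3, CD4, CD8 and CD5 or with Gr-1, CD11b or Ter119. Germinal center cells were taken 14 days after 100 µg of the hapten protein NP-CGG in alum from mice 6 to 10 weeks old. Their gate was B220+, low or absent IgM, low lambda light chain, binding of NP, low CD38 and binding of the lectin PNA. Naive cells came from unimmunized mice of 4 to 8 weeks and were B220+, CD23+, IgD+, lambda+ with low IgM. Plasma cells were taken at day 7 from mice of 5 to 9 weeks, were syndecan-1+, bound NP, and had low B220 and no PNA. The labels give 100 µg for 3 of the 4 plasma arrays and no dose for plasma replicate 1. Memory cells were taken 10 to 12 weeks after 100 µg of the same immunogen from mice of 14 to 18 weeks, and were CD38-high, bound NP and lacked IgM, IgD and PNA. Age, time after antigen and gate therefore differ with the subset and cannot be told apart from it. Whether replicates are different animals is not stated in the labels, and the p-values below cover no more than the variation among these arrays, possibly technical.

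Germinal centers are sites in lymphoid follicles where B cells that have met antigen divide rapidly and mutate their antibody genes. They then compete for antigen and for help from follicular T cells. Cells move between a dark zone, where they divide and mutate, and a light zone, where they are selected, and those that leave become memory or plasma cells. The repressor Bcl6 directs this state, and surface glycans that bind PNA and the antibody GL7 are used to recognise it.

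Values are linear intensities of 1 probe set per gene, compared on the log2 scale. A difference is germinal center minus the other subset, or minus the equally weighted mean of the other 3 subset means, with its standard error. A gene was called at a Benjamini-Hochberg adjusted p under 0.05 in limma over 18193 genes. Where no array of the lower group exceeded the brightest bacterial control probe set without spiked-in RNA, the fold is given as "at least". The intensities of different genes are not on 1 scale and are not compared with each other.

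Between 52.7% and 66.9% of the genes lay above background on each array. The germinal center arrays varied more among themselves than those of the other subsets. The median standard deviation among 6116 bright genes was 0.41 on the log2 scale in germinal center cells, against 0.25 in naive, 0.26 in plasma and 0.28 in memory cells, so the pooled error of the fit understates the spread of the germinal center arrays. The ratio of the 3-prime to the middle actin control, which depends on RNA integrity and amplification, was 10.1, 17.6 and 6.11 on germinal center arrays, against 4.15 to 6.91 on the other 11. In 2 of the 3 it exceeded every other array. Fitting this ratio along with the subsets left 1040 genes higher and 674 lower than the mean of the other subsets, beside 1972 and 1958 without it. The ratio differs with the subset, so this fit cannot fully separate them. A call can be lost in it although the difference is of like size. The GAPDH ratio overlapped, with 8.23 to 10.9 on germinal center and 5.45 to 13 on other arrays. The part of RNA quality in the calls was not tested further. Stated calls of single genes that end with the actin ratio are marked below. List counts with this ratio are given for some lists only.

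B lineage genes were present. Ms4a1, which encodes CD20, read 5350 to 6241 in germinal center cells, against 7699 to 8206 in naive, 514 to 1141 in plasma and 7857 to 10260 in memory cells. The antigen receptor component Cd79b read 1310 to 3096 in germinal center cells, against 5561 to 6946 in naive, 1427 to 2613 in plasma and 4631 to 5563 in memory cells. Cd38 and Ighd were not analysed here, so the CD38 gate was not checked. The plasma cell genes Sdc1 and Prdm1 were above background on no germinal center array, whereas Jchain, described below with the secretory genes, lay well above it. Among T cell markers, Cd3d and Cd3g were at background on all 14 arrays. Cd3e was not, with a mean of 28 in germinal center, 23 in naive, 37 in plasma and 22 in memory cells. Zap70 had means of 94, 76, 86 and 77 in the same order. Of 20 measured T cell markers, 7 were above background on all germinal center arrays and 11 on none. The summed intensity of 20 measured T cell markers was 392 to 474 on germinal center arrays, against 840 to 1148 on naive, 1072 to 1376 on plasma and 569 to 686 on memory arrays, and 0 of the 20 were called higher than the mean of the other subsets. Cd2, at 39.4 to 149 on germinal center arrays, made up most of the gap to naive (555 to 833) and memory arrays (271 to 359), and Cd28, at 7.51 to 10.6 on germinal center and 711 to 963 on plasma arrays, that to plasma arrays. The sum of 25 myeloid markers was 440 to 523 on germinal center arrays, against 568 to 719 on naive, 1309 to 1574 on plasma and 811 to 1506 on memory arrays, again with 0 of 25 called higher. Ctsb (65.6 to 95 on germinal center and 667 to 890 on plasma arrays) and Mpeg1 (66.9 to 161 on germinal center and 379 to 662 on memory arrays) had large parts in those gaps. The 18 stromal, platelet and erythroid markers summed to 296 to 406 on germinal center arrays, against 335 to 432 on naive, 344 to 437 on plasma and 283 to 321 on memory arrays, and 0 of 18 were called in either direction.

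Against the mean of the other subsets, 1972 genes (10.8% of 18193) were higher in germinal center cells and 1958 (10.8%) lower. Against naive cells the counts were 1523 higher (8.37%) and 2019 lower (11.1%). This balance depended on scaling, with 1093 higher and 2531 lower when arrays were centred on the median of all genes, and 2225 higher and 1638 lower when they were centred on bright genes. Those scalings moved the median difference of all genes from naive cells by -0.14 and 0.18. Against plasma cells 2298 were higher (12.6%) and 2033 lower (11.2%), and against memory cells 2090 were higher (11.5%) and 1994 lower (11%). The 3 comparisons share the germinal center arrays. In bulk RNA, fewer cells of a kind and less RNA per cell cannot be told apart. Of the 1972 genes higher than the mean, 569 passed against each of the 3 subsets and 57 were called the opposite way against at least 1. Of the 1958 lower genes, 470 passed against each subset and 89 were opposite in at least 1. A stricter set passed with at least a 2-fold difference against each of the 3 subsets. It held 283 higher genes (1.56%) and 264 lower genes (1.45%), and these are said below to stand apart. With the actin ratio in the fit 312 and 148 passed, of which 200 and 140 were shared with these sets. The 3 germinal center arrays lay above all 11 others for 262 of the 283, and below them for 254 of the 264. Over all genes, such separation was seen for 706 genes upward (3.88%) and 542 downward (2.98%). Plasma cells were the nearest subset for 135 of the 283 higher genes (47.7%) and for 116 of the 264 lower genes (43.9%).

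**Figure D1:**
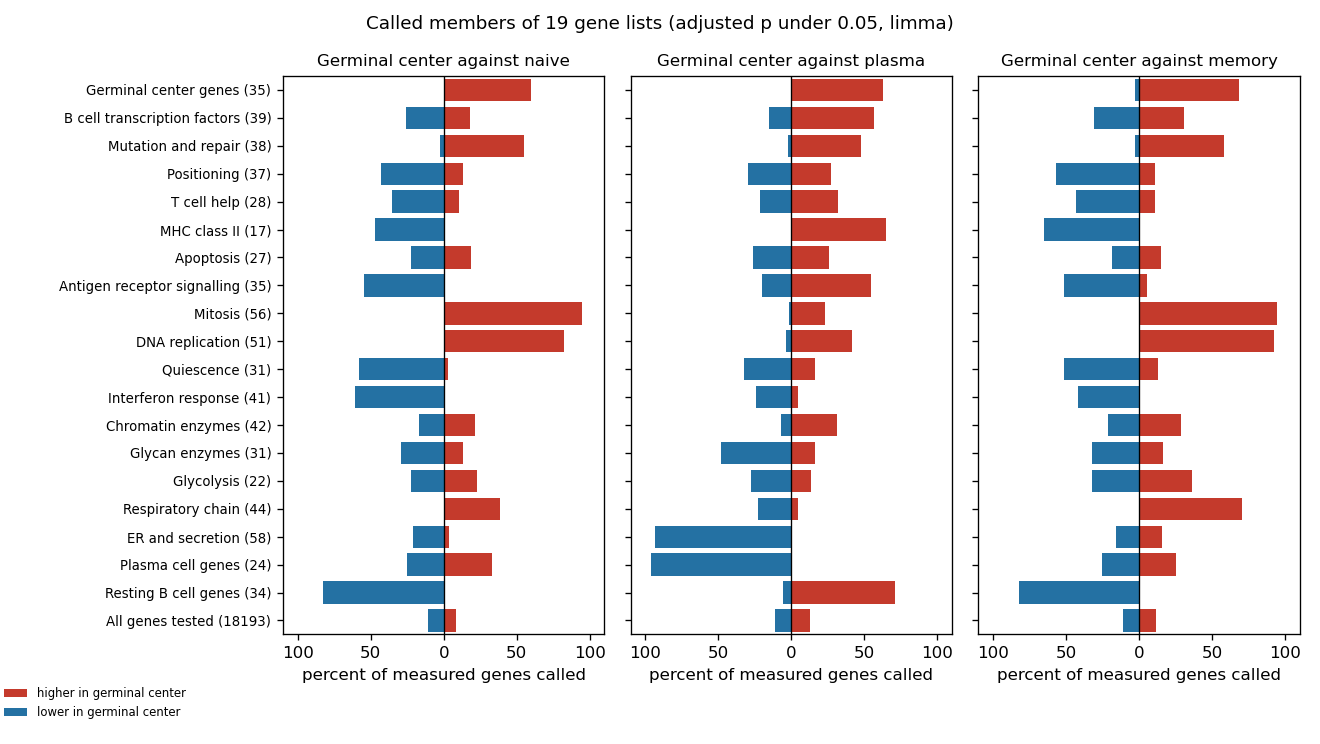
Percent of the measured genes of 19 lists, and of all 18193 genes, that were called higher (red, right) or lower (blue, left) in germinal center cells than in naive, plasma and memory cells. The number of measured genes is in brackets. Mitosis and DNA replication genes were mostly higher than in naive and memory cells, whereas genes of the endoplasmic reticulum and of plasma cells were mostly lower than in plasma cells.

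The 12 highest and 12 lowest genes were chosen from those that stood apart without overlap of arrays. Their separation was thus fixed by the choice. Rgs13, which speeds the shutdown of G protein signals from chemokine receptors, had the largest difference from the mean of the other subsets among the 12 highest genes. It read 1726, 1560 and 1623 in germinal center cells, against 11.7, 11.8 and 9.83 in naive, 7.84, 6.93, 8.00 and 6.54 in plasma and 14.9, 11.5, 10.7 and 29.8 in memory cells. All germinal center arrays lay far above the rest, which were at or near background, and the difference from their mean was 7.25 ± 0.23 (adjusted p = 1.58e-10, limma). Gcsam, an adaptor of antigen receptor signalling and cell movement in germinal center B cells, read 884, 459 and 715 in germinal center cells and 7.48 to 11.3 on the other 11 arrays. It was above background in no other subset and at least 48.2-fold higher than in plasma cells, the smallest of its 3 bounds (6.24 ± 0.15 against the mean, adjusted p = 1.8e-11).

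Rassf6, a Ras association domain protein, was above background on every memory array as well. It read 1191, 469 and 1135 in germinal center cells, against 20.0, 12.7 and 13.6 in naive, 9.46, 9.96, 10.5 and 7.89 in plasma and 60.7, 26.4, 64.9 and 56.6 in memory cells. Memory cells came second (4.12 ± 0.34 against memory, adjusted p = 7.3e-07, limma). Mybl1, which encodes the transcription factor A-Myb, read 29.9, 91.8 and 317 in germinal center cells, against 7.16 to 13.7 in naive, 9.95 to 11.5 in plasma and 9.04 to 10.8 in memory cells. The germinal center arrays spread more than for the other genes of this group (3.28 ± 0.45 from the mean, adjusted p = 9.4e-05, limma).

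Hbb-bh1, an embryonic beta-like globin gene, read 917, 1087 and 766 in germinal center cells, against 12.4 to 19.3 in naive, 17.4 to 29.1 in plasma and 11.5 to 19 in memory cells. The difference from the mean was 5.76 ± 0.18 (adjusted p = 1.58e-10, limma), in the same direction for 3 of 3 probe sets. The adult alpha globin gene Hba-a1 and Alas2, the first enzyme of heme synthesis in red cells, were above background on no array of any subset. Globin genes are close copies of each other, and probe sets of such families may share signal. Hemgn, a nuclear protein of blood progenitors, read 88.9, 127 and 141 in germinal center cells and 7.71 to 14.9 elsewhere (3.56 ± 0.16, adjusted p = 2.67e-09).

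The other genes among the 12 highest spanned enzymes, inhibitors and junction proteins. Cryz, a quinone reductase, read 641 to 1405 in germinal center cells and 36.8 to 154 on the other arrays (3.61 ± 0.26). Noct, a circadian regulator, read 556 to 951 in germinal center cells and 21.2 to 154 elsewhere (3.72 ± 0.34). Pkp4, a junction protein of the armadillo family, read 326 to 419 in germinal center cells and 13.3 to 71.9 elsewhere (3.82 ± 0.28). Nrep read 138 to 360 and 6.81 to 27.3 (4.54 ± 0.27), the protease inhibitor Serpinb6b 182 to 258 and 7.07 to 27.0 (3.98 ± 0.18), and Sh3bgrl2 80.7 to 124 and 7.32 to 14.9 (3.28 ± 0.19), in germinal center cells and elsewhere in each case. None of the 12 overlapped with any other array, which was a condition for their choice.

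**Figure D2:**
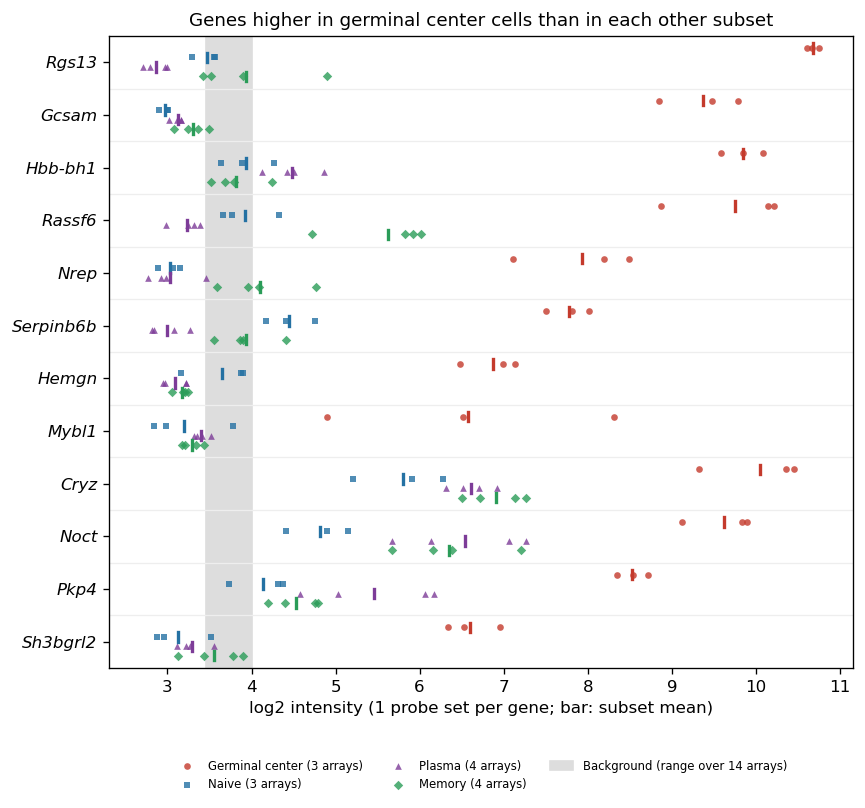
log2 intensity on every array for the 12 named genes that were furthest above all 3 other subsets. Points are arrays, bars are subset means and the grey band is the range of background over 14 arrays. All 3 germinal center points lie right of the 11 others for every gene, which the choice of these genes required. Mybl1 has the widest germinal center spread.

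At the other end, Cobll1 read 7.23, 7.51 and 6.56 in germinal center cells, against 404, 281 and 441 in naive, 172, 135, 208 and 116 in plasma and 268, 219, 242 and 358 in memory cells. It was at background on every germinal center array and on no other, and at least 10.9-fold lower than in plasma cells, the smallest of its 3 bounds (adjusted p = 3.09e-10 against the mean). S100a10, the partner of annexin A2 at the plasma membrane, read 52.7, 13.1 and 30.0 in germinal center cells, against 1267 to 1900 in naive, 378 to 846 in plasma and 1271 to 2375 in memory cells (-5.28 ± 0.34, adjusted p = 6.97e-08). Malat1, a nuclear long noncoding RNA, read 151, 272 and 280 in germinal center cells, against 4097 to 4417 in naive, 3057 to 4444 in plasma and 5746 to 6981 in memory cells. Its groups lay far apart (-4.39 ± 0.17, adjusted p = 4.95e-10), with 5 of its 7 probe sets called in this direction.

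Pml, which organises nuclear bodies, read 31.2, 21.3 and 21.8 in germinal center cells, against 1031 to 1361 in naive, 268 to 444 in plasma and 1506 to 2048 in memory cells (-5.19 ± 0.17, adjusted p = 1.58e-10). Plasma cells were the nearest subset and still 14.0-fold higher. Plac8 read 13.8 to 19.1 in germinal center cells, against 882 to 1127 in naive, 171 to 296 in plasma and 1026 to 1714 in memory cells (-5.34 ± 0.19). Aff1, a member of the super elongation complex of transcription, read 23.6 to 41.0 in germinal center cells and 247 to 564 elsewhere (-3.97 ± 0.20). Capg, which caps actin filaments, read 9.29 to 19.8 in germinal center cells and 139 to 627 elsewhere (-4.40 ± 0.23).

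The palmitoyltransferase Zdhhc14 read 46.8 to 73.3 in germinal center cells and 621 to 2214 elsewhere (-4.45 ± 0.15). Tmcc3, a membrane protein of the endoplasmic reticulum, read 9.71 to 15.8 in germinal center cells and 148 to 643 elsewhere (-4.51 ± 0.20). Kctd14 read 7.52 to 11.4 in germinal center cells, at background, and 96.3 to 1044 elsewhere, and was at least 10.1-fold lower than in plasma cells, the smallest of its 3 bounds. Cmah and Irgm1, the remaining 2 of the 12, are described below with the glycan and interferon genes.

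**Figure D3:**
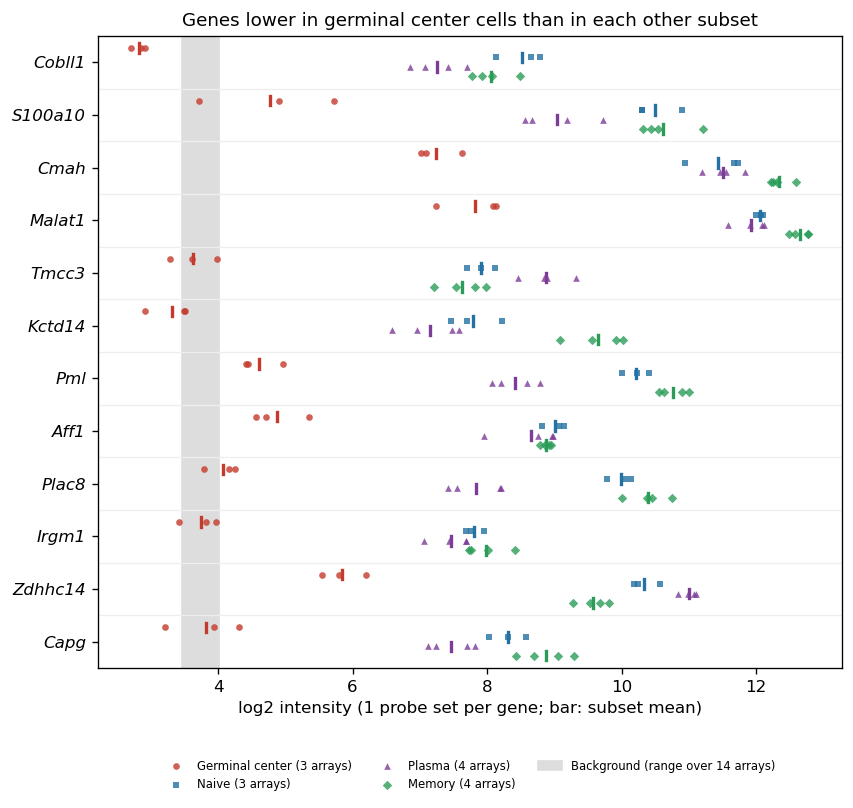
log2 intensity on every array for the 12 named genes that were furthest below all 3 other subsets. Points are arrays, bars are subset means and the grey band is the range of background. All 3 germinal center points lie left of the 11 others for every gene, which the choice of these genes required. Cobll1 and Kctd14 lie within or below the background band in germinal center cells.

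Of 35 measured genes known from germinal center B cells, 27 were higher than the mean of the other subsets, 0 lower, with a median difference of 2.32, against 0.04 over all genes. These genes were listed with earlier results of these data known, so the count is a description. Against single subsets 21 were higher than in naive, 22 than in plasma and 24 than in memory cells, and 14 stood apart, among them Rgs13, S1pr2, Gcsam, Fas, Mef2b, Tox and Neil1. Some members were shared with another subset. Eaf2, an elongation factor gene, read 3830, 1848 and 2685 in germinal center cells and 4647 to 5696 in plasma cells, against 12.2 to 29.7 in naive and 15.8 to 38.0 in memory cells. It was higher than in naive (6.96 ± 0.36) and memory cells (6.59 ± 0.34), and did not pass against plasma cells (-0.93 ± 0.34, adjusted p = 0.0646).

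Of 39 measured transcription factors, 22 were higher and 6 lower than in plasma cells, 7 higher and 10 lower than in naive cells, and 12 higher and 12 lower than in memory cells. With the actin ratio 6 were lower than in naive and 6 than in memory cells. Against the mean 15 were higher and 9 lower (5 with the actin ratio), and 9 and 10 when plasma cells were left out of it. The share of all genes called against the mean was 10.8% in each direction. The repressor Bcl6 read 2081, 2553 and 3061 in germinal center cells, against 1398, 1174 and 1709 in naive, 8.69, 11.9, 9.03 and 12.7 in plasma and 274, 413, 356 and 583 in memory cells. Germinal center arrays were the highest, but naive cells were close. The difference was 0.85 ± 0.26 from naive cells (adjusted p = 0.031, lost without naive replicate 1 or 2, without germinal center replicate 2 or 3 and with the actin ratio, when it reached 0.17 at most), 2.69 ± 0.24 from memory cells, and at least 185-fold from plasma cells. Bach2, which holds back plasma cell development, read 1760, 1418 and 2370 in germinal center cells, against 1388, 649 and 1054 in naive, 8.75, 6.66, 9.00 and 6.16 in plasma and 398, 357, 839 and 932 in memory cells. It did not pass against naive cells (0.88 ± 0.37, adjusted p = 0.12) and was higher than in memory (1.65 ± 0.35) and plasma cells (at least 132-fold).

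Mef2b, an activator of Bcl6 transcription, read 132, 320 and 432 in germinal center cells, against 12.2, 15.1 and 30.1 in naive, 48.2, 73.1, 64.7 and 72.6 in plasma and 19.6, 16.5, 16.9 and 25.6 in memory cells. It stood apart without overlap (3.24 ± 0.31, adjusted p = 3.47e-06), as did Tox, with 25.4 to 69.8 in germinal center cells and 8.55 to 14.5 elsewhere (1.75 ± 0.24). Irf4, which drives plasma cell differentiation, read 49.3, 45.3 and 133 in germinal center cells, against 887, 602 and 747 in naive, 3632, 2838, 4112 and 2998 in plasma and 479, 524, 705 and 693 in memory cells. Germinal center cells had the lowest values on every array (-4.09 ± 0.26, adjusted p = 6.8e-08). Tle3, a corepressor, read 49.2 to 117 in germinal center cells and 133 to 653 elsewhere (-1.91 ± 0.26), and lost its call against plasma cells without germinal center replicate 1.

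Some factors took opposite directions against different subsets. Hhex, a homeobox factor, read 27.5, 37.2 and 116 in germinal center cells, against 3368 to 3959 in naive, 8.77 to 11.1 in plasma and 1426 to 3354 in memory cells. It was lower than in naive (-6.22 ± 0.41) and memory cells (-5.58 ± 0.38) and at least 3.58-fold higher than in plasma cells. Irf8, a factor of B cell identity, read 1309 to 2896 in germinal center cells, against 3451 to 3900 in naive, 46.8 to 70.3 in plasma and 2588 to 3579 in memory cells. It was called higher than the mean of the other subsets (1.36 ± 0.21), a difference that turned to -0.60 when plasma cells were left out of that mean. Myc read 106, 117 and 253 in germinal center cells, against 157 to 224 in naive, 58 to 87.6 in plasma and 209 to 416 in memory cells, and did not pass against the mean (-0.04 ± 0.26, adjusted p = 0.941). It was higher than in plasma cells (1.12 ± 0.30, adjusted p = 0.0143, lost without germinal center replicate 3) and lower than in memory cells (-0.91 ± 0.30, adjusted p = 0.0458, lost in 11 of the settings tried, among them without germinal center replicate 1 or 2).

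**Figure D4:**
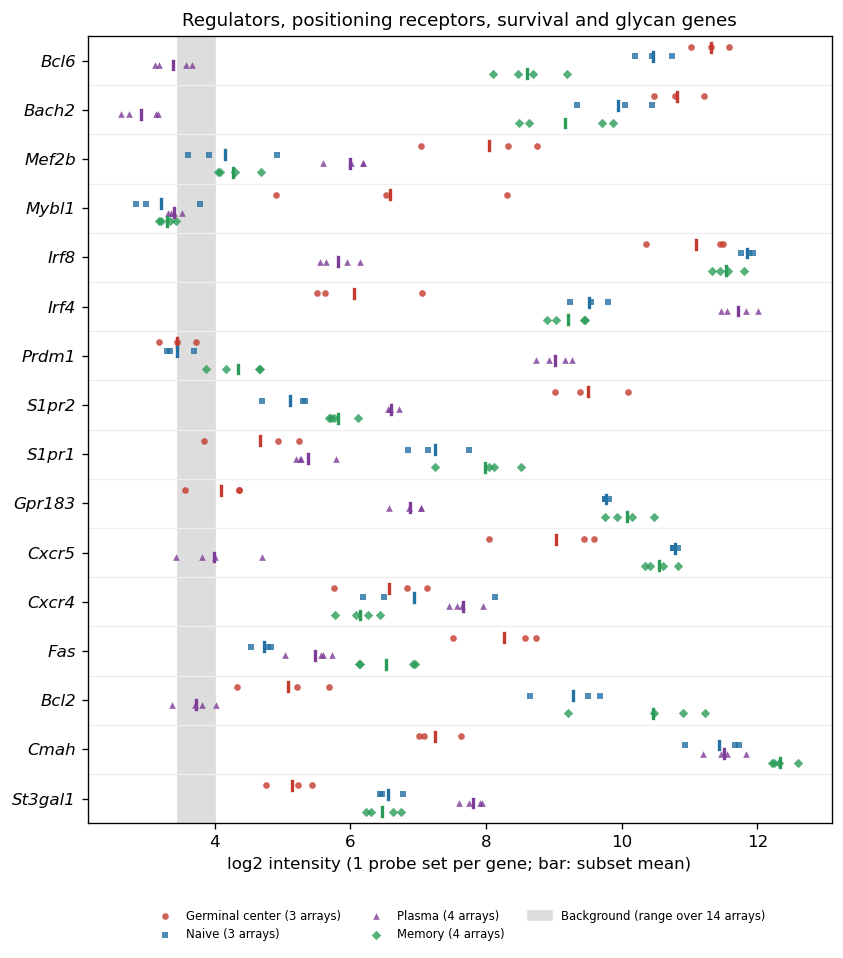
log2 intensity on every array for 16 regulators, receptors, survival and glycan genes. Points are arrays, bars are subset means and the grey band is the range of background. Mef2b, Mybl1, S1pr2 and Fas are highest in germinal center cells, whereas Irf4, Gpr183, Cmah and St3gal1 are lowest there, and Bcl6 and Bach2 lie near their naive values.

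Genes of the cell cycle separated germinal center cells from the resting subsets far more than from plasma cells. Of 56 measured mitosis genes, 53 were higher than in naive cells (median 4.44) and 53 than in memory cells (median 4.51), with 0 lower in either. Against plasma cells 13 were higher and 1 lower, with a median of 0.35 beside 0.02 over all genes. Mki67, a marker of dividing cells, read 7225, 5180 and 8589 in germinal center cells, against 9.21 to 32.9 in naive, 5467 to 6522 in plasma and 197 to 282 in memory cells. Germinal center and plasma arrays overlapped (0.24 ± 0.34, adjusted p = 0.702), whereas the difference was 8.88 ± 0.36 from naive and 4.90 ± 0.34 from memory cells. Cdca5, which protects sister chromatid cohesion, read 4014 to 4638 in germinal center cells, against 10.2 to 14.1 in naive, 2247 to 2671 in plasma and 24.0 to 82.4 in memory cells. Its arrays did not overlap those of plasma cells, yet it did not pass there (0.79 ± 0.31, adjusted p = 0.0811).

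A group of 9 mitosis genes stood apart from plasma cells as well. They were the checkpoint kinase Bub1b, the kinetochore genes Cenpe and Ndc80, the passenger complex scaffold Incenp, the condensin subunit Ncapg, the kinesins Kif20a, Kif23 and Kif2c, and Cks2, a partner of cyclin-dependent kinases. Ncapg read 2668, 1288 and 1968 in germinal center cells, against 11.9, 8.12 and 7.83 in naive, 795, 696, 671 and 731 in plasma and 15.8, 11.8, 10.8 and 20.3 in memory cells. The germinal center values were above all plasma values (1.39 ± 0.25, adjusted p = 0.00082) and at least 146-fold above naive cells. Cenpe, a kinetochore motor, read 1721, 923 and 1881 in germinal center cells, against 18.6, 28.3 and 25.4 in naive, 303, 490, 559 and 311 in plasma and 16.4, 17.6, 13.1 and 11 in memory cells, with 1.85 ± 0.28 against plasma (adjusted p = 0.000195). Cks2 read 2431 to 2875 in germinal center cells, against 87.8 to 157 in naive, 664 to 948 in plasma and 75.0 to 114 in memory cells (1.73 ± 0.21 against plasma). Kif23, needed to complete cell division, read 438 to 806 in germinal center cells, against 35.0 to 42.5 in naive, 193 to 334 in plasma and 47.4 to 59.0 in memory cells (1.30 ± 0.22 against plasma).

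Promoters of these genes are shown because the members moved together. Promoters of mitotic genes are known to carry CCAAT boxes, bound by NF-Y, and the cell cycle element TTTGAA, bound by the DREAM and B-Myb complexes. These letters, TTGGCG from the E2F site and ATGCAAA from the octamer bound by Oct factors were searched on both strands of 300 bases around the start, 250 before and 50 after, in RefSeq sequences of GRCm38.p6. A CCAAT on the reverse strand can overlap TTGGCG. Among 53 promoters of the mitosis list, 41 held CCAAT (77.4%) and 37 held TTTGAA (69.8%), against 37.4% and 13.4% of the 18109 promoters of all measured genes. Among promoters of the 283 genes that stood apart as higher the shares were 47.2% and 20.8%, and among those of the 264 lower genes 36.6% and 11.2%. TTGGCG was found in 26.4% of mitosis, 17.8% of higher, 6.44% of lower and 9.95% of all promoters, and ATGCAAA in 1.89%, 5.58%, 3.73% and 3.85% of the same sets. A match is only a run of letters and says nothing of binding. The promoters of Ncapg (chr5:45669675-45669974, plus strand), Kif23 (chr9:61946750-61947049, minus strand) and Bub1b (chr2:118597961-118598260, plus strand) are 3 that hold both CCAAT and TTTGAA. Cenpe and Cks2, of the same group of mitosis genes, held CCAAT without TTTGAA, and Kif2c and Ndc80 held TTTGAA without CCAAT. Mef2b (chr8:70152511-70152810, plus strand) is shown as the regulator whose promoter held all 4. Capitals mark the matches on either strand, so that ATTGG is CCAAT read in reverse.
Ncapg: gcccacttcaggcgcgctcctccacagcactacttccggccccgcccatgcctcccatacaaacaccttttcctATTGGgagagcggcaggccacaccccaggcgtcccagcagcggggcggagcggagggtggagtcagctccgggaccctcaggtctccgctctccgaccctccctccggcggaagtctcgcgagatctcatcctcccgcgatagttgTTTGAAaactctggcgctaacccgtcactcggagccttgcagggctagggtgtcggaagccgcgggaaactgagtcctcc
Kif23: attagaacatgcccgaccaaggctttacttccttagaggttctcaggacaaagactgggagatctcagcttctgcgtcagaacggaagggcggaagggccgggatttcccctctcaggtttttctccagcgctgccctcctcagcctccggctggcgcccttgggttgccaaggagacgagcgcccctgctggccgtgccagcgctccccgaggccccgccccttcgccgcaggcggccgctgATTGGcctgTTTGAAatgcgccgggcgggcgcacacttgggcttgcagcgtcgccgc
Bub1b: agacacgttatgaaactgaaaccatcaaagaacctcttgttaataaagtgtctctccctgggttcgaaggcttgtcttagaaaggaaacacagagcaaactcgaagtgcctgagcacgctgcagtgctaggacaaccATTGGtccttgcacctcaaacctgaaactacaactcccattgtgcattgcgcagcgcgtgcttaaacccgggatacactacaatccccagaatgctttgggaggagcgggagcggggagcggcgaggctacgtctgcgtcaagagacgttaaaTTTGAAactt
Mef2b: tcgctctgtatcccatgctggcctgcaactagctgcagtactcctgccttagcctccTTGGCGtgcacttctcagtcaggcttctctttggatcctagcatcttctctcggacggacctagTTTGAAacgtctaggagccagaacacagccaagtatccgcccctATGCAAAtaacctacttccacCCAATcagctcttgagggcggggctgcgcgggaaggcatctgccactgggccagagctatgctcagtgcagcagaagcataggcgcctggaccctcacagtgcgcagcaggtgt
In Ncapg and Kif23 the TTTGAA lay 30 bases before and 3 bases after the annotated start, and in Bub1b 41 bases after it.

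DNA replication genes followed a like order. Of 51 measured, 42 were higher than in naive cells (median 2.05), 47 than in memory cells (median 2.51) and 21 than in plasma cells (median 0.43, with 2 lower). Cdc6, which loads the replicative helicase, read 747, 679 and 783 in germinal center cells and 690 to 926 in plasma cells, against 7.48 to 11.5 in naive and 9.09 to 11.8 in memory cells. It did not pass against plasma cells (-0.13 ± 0.16). Rrm2, a subunit of ribonucleotide reductase, read 3042 to 4197 in germinal center cells, against 25.0 to 97.7 in naive, 4437 to 5837 in plasma and 15.8 to 48.1 in memory cells. The 9 members that stood apart were Gins3, Cdc7, Pola1, Prim1, Pole, Rfc2, Rpa3, Uhrf1 and Dnmt1, of which Rfc2 and Rpa3 lost a call with the actin ratio, and Rpa3 that against plasma cells also without germinal center replicate 1 or plasma replicate 4. Pola1 and Prim1, of the polymerase that starts each DNA strand, read 347 to 753 and 1019 to 1294 in germinal center cells, against 82.8 to 140 and 309 to 409 in plasma cells (2.07 ± 0.29 and 1.71 ± 0.17). Pold1, the catalytic subunit of polymerase delta, read 3286 to 4978 in germinal center cells, against 2598 to 3198 in naive, 194 to 381 in plasma and 1926 to 3339 in memory cells. Its difference was 3.87 ± 0.24 from plasma cells and did not pass against naive cells (0.58 ± 0.26, adjusted p = 0.145).

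**Figure D5:**
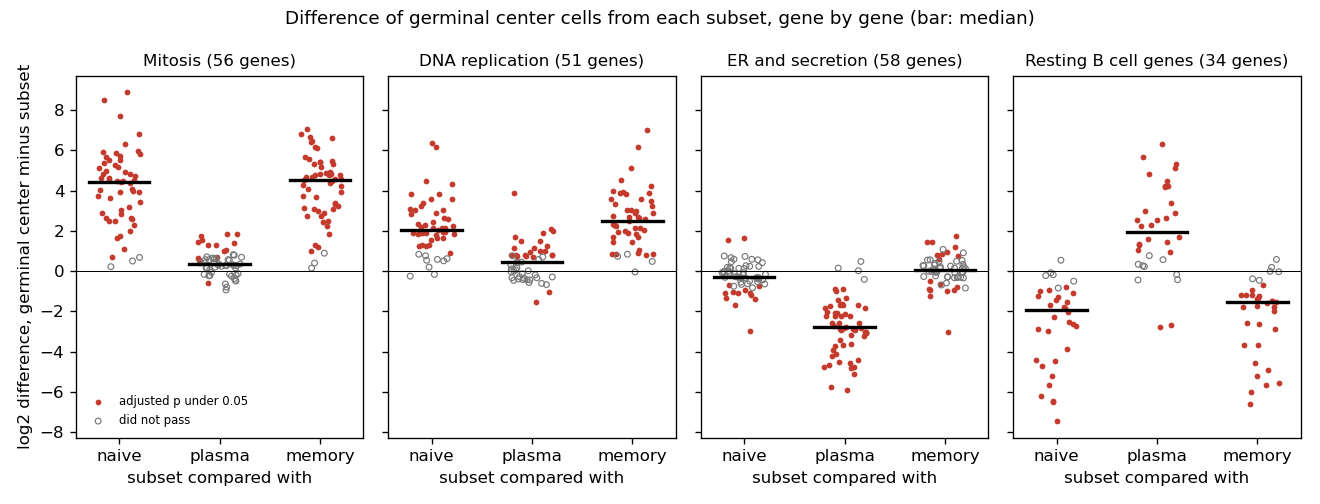
log2 difference of germinal center cells from naive, plasma and memory cells for each measured gene of 4 lists, red where the adjusted p was under 0.05 and open where it was not. Bars are medians. Mitosis and replication genes lie high against naive and memory cells and near 0 against plasma cells, whereas secretion genes have a median of -2.79 against plasma cells, and resting B cell genes change side.

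Of 38 measured genes of antibody gene mutation and DNA repair, 23 were higher than the mean of the other subsets (18 with the actin ratio) and 1 lower, with a median of 0.98. Over all genes 10.8% were called in each direction. The 8 that stood apart were Neil1, Msh6, Xrcc1, H2ax, Rad51ap1, Brca2, Chek1 and Fancd2. Xrcc1, the scaffold of base excision repair, read 1841 to 2724 in germinal center cells, against 525 to 534 in naive, 272 to 458 in plasma and 366 to 504 in memory cells. Its groups did not overlap, and the differences were of like size against each subset (2.15 ± 0.20, 2.68 ± 0.19 and 2.39 ± 0.19 from naive, plasma and memory cells). Msh6, which recognises DNA mismatches, read 238 to 553 in germinal center cells and 98.1 to 221 elsewhere (1.43 ± 0.28), and its call against plasma cells (adjusted p = 0.0126) was lost without germinal center replicate 1 or 3. The glycosylase Neil1 read 329 to 469 in germinal center cells, against 14.4 to 27.2 in naive, 85.3 to 216 in plasma and 114 to 268 in memory cells, and its calls against plasma and memory cells were lost without germinal center replicate 3 or with the actin ratio, the last also without memory replicate 2 or 4.

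Chek1, the kinase of the replication checkpoint, read 1217, 1226 and 1131 in germinal center cells, against 35.0, 29.4 and 26.0 in naive, 561, 636, 705 and 478 in plasma and 27.7, 16.6, 20.9 and 17.0 in memory cells. The 3 germinal center values were nearly alike and above all others (4.07 ± 0.16, adjusted p = 5.04e-10, and 1.02 ± 0.19 from plasma cells). Fancd2, of the crosslink repair pathway, read 129 to 220 in germinal center cells, against 6.86 to 14.9 in naive, 36.3 to 63.8 in plasma and 7.32 to 13.6 in memory cells (3.16 ± 0.26). Rad51ap1, an aid of recombination, read 810 to 1375 in germinal center and 376 to 569 in plasma cells (1.15 ± 0.34, adjusted p = 0.0244), a call lost without germinal center replicate 2 or 3, without plasma replicate 1 or 4 and with the actin ratio. The nuclease Exo1 read 212 to 490 in germinal center and 210 to 280 in plasma cells and did not pass there (0.60 ± 0.28), while it was 4.37 ± 0.30 above naive and 4.43 ± 0.28 above memory cells. Mad2l2, a subunit of translesion polymerase zeta, was the 1 member called lower (-0.66 ± 0.21, adjusted p = 0.0391), a call lost with the actin ratio (0.01).

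Receptors and adhesion molecules that place B cells in the spleen differed by subset. Of 37 measured, 21 were lower and 4 higher than in memory cells, 16 lower and 5 higher than in naive cells, and 11 lower and 10 higher than in plasma cells. With the actin ratio the lower counts were 14, 12 and 8, in the same order. Over all genes 11%, 11.1% and 11.2% were lower and 11.5%, 8.37% and 12.6% higher. Against the mean 20 were lower (11 with the actin ratio) and 7 higher. S1pr2, the receptor that keeps cells near the follicle centre, read 519, 1090 and 670 in germinal center cells, against 25.9, 39.6 and 40.2 in naive, 95.7, 95.6, 93.6 and 105 in plasma and 69.5, 54.3, 51.2 and 52.6 in memory cells. Every germinal center array was above the rest (3.65 ± 0.19, adjusted p = 8.84e-09). Its relative S1pr1, which draws cells out of lymphoid tissue, read 14.4, 37.8 and 30.6 in germinal center cells, against 115 to 216 in naive, 36.7 to 55.0 in plasma and 152 to 365 in memory cells. It was lower than in naive (-2.57 ± 0.37) and memory cells (-3.31 ± 0.34) and overlapped with plasma cells (-0.71 ± 0.34, adjusted p = 0.171).

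Gpr183, an oxysterol receptor that draws B cells to the edge of the follicle, read 11.8, 20.5 and 20.6 in germinal center cells, against 901, 861 and 866 in naive, 132, 132, 95.2 and 116 in plasma and 974, 1423, 1141 and 865 in memory cells. Germinal center cells were lowest on every array, plasma cells came next, and naive and memory cells overlapped (-4.82 ± 0.18, adjusted p = 3.4e-10). The integrin chains Itga4 and Itgb7 also stood apart, with 185 to 268 in germinal center cells and 401 to 2540 elsewhere for Itga4 (-2.60 ± 0.22), and 38.1 to 86.5 in germinal center cells and 282 to 1656 elsewhere for Itgb7 (-3.68 ± 0.24). Ccr6, a chemokine receptor, read 14.5 to 28.1 in germinal center and 16.3 to 19 in plasma cells, against 659 to 723 in naive and 842 to 1957 in memory cells. Klf2, which controls genes of recirculation, read 24.3 to 33.8 in germinal center and 27.6 to 81.4 in plasma cells, against 714 to 929 in naive and 588 to 861 in memory cells. Neither of them passed against plasma cells (adjusted p = 0.65 and 0.374).

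The follicle receptor Cxcr5 read 265, 693 and 771 in germinal center cells, against 1729 to 1823 in naive, 10.8 to 26.0 in plasma and 1298 to 1813 in memory cells. It was lower than in naive (-1.76 ± 0.36) and memory cells (-1.52 ± 0.33), both lost with the actin ratio, and higher than in plasma cells (5.04 ± 0.33). Cxcr4, the dark zone receptor, read 140, 114 and 54.2 in germinal center cells, against 72.8 to 280 in naive, 176 to 248 in plasma and 54.9 to 86.5 in memory cells, and was called in no comparison (adjusted p = 0.0656 or more).

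Enzymes of surface glycans bear on the PNA gate, which was part of the sort. PNA binds a galactose on O-linked sugars that is hidden when St3gal1 adds sialic acid, and GL7 recognises a sialic acid that Cmah converts to another form. Of 31 measured glycan enzymes, 14 were lower than the mean of the other subsets (9 with the actin ratio), 3 higher and 6 stood apart as lower. Over all genes 10.8% were called in each direction, and 1.45% stood apart as lower. Cmah read 129, 136 and 198 in germinal center cells, against 3395, 1962 and 3251 in naive, 3011, 2348, 3638 and 2827 in plasma and 4854, 4776, 6185 and 5102 in memory cells. The groups were far apart (-4.52 ± 0.18, adjusted p = 7.74e-10), with 5 of its 6 probe sets called lower. St3gal1 read 37.5, 43.3 and 27.0 in germinal center cells, against 86.5, 109 and 88.2 in naive, 195, 246, 216 and 241 in plasma and 98.6, 107, 78.6 and 75.1 in memory cells. Here too every germinal center value was below all others (-1.80 ± 0.15, adjusted p = 9.12e-07).

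Gne, the first enzyme of sialic acid synthesis, read 46.6 to 63.9 in germinal center cells, against 142 to 153 in naive, 547 to 844 in plasma and 95.0 to 141 in memory cells (-2.07 ± 0.16, with the call against memory cells lost with the actin ratio, adjusted p = 0.0506). The sialyltransferase St8sia4 read 1052 to 1340 in germinal center cells and 2232 to 3745 elsewhere (-1.27 ± 0.13). The galactosyltransferase B4galt1 read 36.0 to 62.3 and 103 to 473 (-1.93 ± 0.20), and the branching enzyme Mgat4a 85.2 to 177 and 195 to 1169 (-1.90 ± 0.24), in germinal center cells and elsewhere. The call of Mgat4a against plasma cells was lost without germinal center replicate 2 and with the actin ratio. Among those called higher, Galnt12, which starts O-linked chains, read 330 to 468 in germinal center cells and 144 to 310 elsewhere (0.97 ± 0.19). Its call against memory cells was lost without germinal center replicate 1 or 3, without memory replicate 1 or 4 and with the actin ratio. The O-glycan branching enzyme Gcnt1 read 111 to 157 in germinal center cells, against 163 to 231 in naive, 8.77 to 12.4 in plasma and 48.3 to 87.0 in memory cells. It was thus below every naive array. Its call as higher than the mean was lost when plasma cells were left out of it. That against memory cells was lost with the actin ratio.

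Of 31 measured genes that restrain division, 18 were lower and 1 higher than in naive cells, 16 lower and 4 higher than in memory cells, and 10 lower and 5 higher than in plasma cells. With the actin ratio the lower counts were 12, 13 and 8, in the same order. Over all genes 11.1%, 11% and 11.2% were lower and 8.37%, 11.5% and 12.6% higher. Against the mean 16 were lower (12 with the actin ratio) and 3 higher, and 7 stood apart as lower: Klf3, Foxo3, Txnip, Cdkn1b, Rb1, Pdcd4 and Mxi1. Klf3, a repressor of the Krüppel-like family, read 9.27, 9.31 and 14.8 in germinal center cells, against 1892 to 2425 in naive, 53.3 to 115 in plasma and 1589 to 2116 in memory cells (-5.89 ± 0.22, adjusted p = 3.1e-10). Txnip, an inhibitor of thioredoxin and of glucose uptake, read 467 to 583 in germinal center cells, against 4507 to 5264 in naive, 1111 to 1883 in plasma and 3552 to 5728 in memory cells (-2.64 ± 0.17). The cell cycle inhibitor Cdkn1b read 7.33 to 20.4 in germinal center cells and 36.7 to 151 elsewhere (-2.53 ± 0.32), and the retinoblastoma gene Rb1 106 to 172 and 350 to 1001 (-2.19 ± 0.22). Another inhibitor, Cdkn2c, took the other side, with 569 to 742 in germinal center and 589 to 675 in plasma cells, against 106 to 142 in naive and 62.6 to 99.8 in memory cells.

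Among 41 measured interferon-stimulated genes, 0 were higher than the mean of the other subsets and 21 lower, with a median of -0.55. Over all genes 10.8% were called in each direction. The lower count was 13 without germinal center replicate 2 and 6 with the actin ratio, which was highest on that array. The median with that ratio was -0.56. Against naive cells 25 were lower (13 with the actin ratio) and against memory cells 17 (6 with it), but against plasma cells 10 were lower and 2 higher. The immunity-related GTPase Irgm1 read 10.7, 15.6 and 14.2 in germinal center cells, against 206 to 248 in naive, 133 to 207 in plasma and 213 to 341 in memory cells (-4.01 ± 0.17, adjusted p = 1.39e-09). Its relative Igtp read 69.5 to 124 in germinal center cells and 296 to 882 elsewhere (-2.49 ± 0.17), and the guanylate-binding protein Gbp7 8.98 to 13.3, at background, and 52.8 to 302 elsewhere (at least 4.39-fold lower than in plasma cells, the smallest of its 3 bounds). These 3 stood apart. Rtp4 had another pattern, with 15.9 to 22.4 in germinal center and 13.9 to 20.2 in plasma cells, against 203 to 309 in naive and 28.4 to 51.8 in memory cells.

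Of 42 measured chromatin enzymes, 13 were higher than the mean of the other subsets and 7 lower (4 without germinal center replicate 1 or with the actin ratio). On each side 3 stood apart. Over all genes 10.8% were called in each direction, and 1.56% stood apart as higher and 1.45% as lower. Ezh2, the methyltransferase of Polycomb complex PRC2, read 1639, 1014 and 1486 in germinal center cells, against 132, 142 and 193 in naive, 542, 633, 574 and 390 in plasma and 167, 145, 129 and 148 in memory cells. Germinal center arrays were highest and plasma arrays second (2.57 ± 0.17, adjusted p = 9.62e-08). Dnmt1 and Uhrf1, which copy DNA methylation at replication, were highest in germinal center cells as well. Dnmt1 read 4178 to 5666 in germinal center cells and 633 to 1702 elsewhere (2.33 ± 0.16), and Uhrf1 161 to 219 and 9.22 to 66.2 (3.28 ± 0.23). Tet2, which oxidises methylated DNA, read 87.6, 58.8 and 91.1 in germinal center cells, against 437 to 839 in naive, 217 to 322 in plasma and 547 to 808 in memory cells (-2.52 ± 0.21, adjusted p = 6.02e-07). Bmi1, of Polycomb complex PRC1, read 127 to 161 in germinal center cells and 422 to 1035 elsewhere (-2.36 ± 0.19), and Jarid2, a PRC2 partner, 34.6 to 132 and 214 to 552 (-2.13 ± 0.31).

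Of 28 measured genes for T cell help, 3 were higher and 10 lower than in naive cells, 3 higher and 12 lower than in memory cells, and 9 higher and 6 lower than in plasma cells. With the actin ratio 6 were lower than in naive and 6 than in memory cells. Against the mean 7 were higher and 9 lower (2 and 4 with the actin ratio), and 4 and 14 when plasma cells were left out of it. The share of all genes called against the mean was 10.8% in each direction. Cd86, a ligand of CD28 on T cells, read 585, 597 and 640 in germinal center cells, against 85.9 to 133 in naive, 12.3 to 19.4 in plasma and 516 to 701 in memory cells. It was higher than in naive (2.61 ± 0.20) and plasma cells (5.34 ± 0.19), and memory values overlapped (-0.07 ± 0.19, adjusted p = 0.833). Slamf1, an adhesion receptor between B and T cells, read 655 to 844 in germinal center cells, against 391 to 538 in naive, 16.5 to 19.6 in plasma and 246 to 346 in memory cells (2.44 ± 0.13). Tnfrsf13b, the BAFF and APRIL receptor TACI, read 210, 69.5 and 204 in germinal center cells and 544 to 999 elsewhere (-2.22 ± 0.28), with the calls against naive and memory cells lost with the actin ratio. The interleukin-6 receptor Il6ra read 12.0 to 17.7 in germinal center cells and 27.1 to 108 elsewhere (-1.64 ± 0.16).

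MHC class II genes sat between the other subsets. Of 17 measured, 11 were higher than in plasma cells with 0 lower, while 8 were lower than in naive and 11 lower than in memory cells, with 0 higher in either. With the actin ratio the lower counts were 2 and 1, and the medians -0.64 and -0.57, beside -0.93 and -0.86 without it. H2-Ob, which restrains peptide loading, read 1584 to 2552 in germinal center cells, against 4671 to 5193 in naive, 37.7 to 66.5 in plasma and 3862 to 5834 in memory cells. H2-Ab1, an antigen-presenting chain, read 1385 to 2834 in germinal center cells, against 4872 to 5845 in naive, 1490 to 1699 in plasma and 4296 to 6366 in memory cells. Antigen receptor signalling genes were less uniform. Of 35 measured, 19 were lower and 0 higher than in naive cells, and 18 lower and 2 higher than in memory cells. With the actin ratio the lower counts were 8 and 8. Against plasma cells 19 were higher and 7 lower, where 11.2% of all genes were lower. Ptpn22, a phosphatase that dampens receptor signals, stood apart with 12.0 to 17.5 in germinal center cells, against 70.6 to 150 in naive, 251 to 375 in plasma and 203 to 371 in memory cells (-3.83 ± 0.22, adjusted p = 1.88e-08). Cd81, a tetraspanin of the B cell surface, read 184 to 246 in germinal center cells and 438 to 866 elsewhere (-1.47 ± 0.12).

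Among 27 measured apoptosis genes, 4 were higher and 6 lower than the mean of the other subsets, where 10.8% of all genes were called in each direction. The lower count was 3 without germinal center replicate 2 and 1 with the actin ratio. The death receptor Fas stood apart, with 425, 182 and 380 in germinal center cells, against 28.5, 23.1 and 27.7 in naive, 47.6, 53.0, 48.6 and 32.7 in plasma and 121, 69.7, 70.4 and 124 in memory cells (2.69 ± 0.25, adjusted p = 2.45e-06). Bcl2, which blocks cell death, read 51.3, 37.1 and 20.1 in germinal center cells, against 400 to 819 in naive, 10.3 to 16.2 in plasma and 594 to 2410 in memory cells. It was lower than in naive (-4.20 ± 0.46) and memory cells (-5.38 ± 0.43). The call against plasma cells (1.35 ± 0.43, adjusted p = 0.0327) was lost without germinal center replicate 1 or 2, without plasma replicate 1, 3 or 4 and with the actin ratio.

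Genes of the secretory pathway set germinal center cells below plasma cells and near the resting subsets. Of 58 measured, 54 were lower and 0 higher than in plasma cells (median -2.79). Against naive cells 2 were higher and 12 lower, and against memory cells 9 were higher and 9 lower (median 0.05). Over all genes 11.1% were lower than in naive and 11% lower than in memory cells. With the actin ratio 3 were higher and 0 lower than in naive cells, and 10 higher and 1 lower than in memory cells. The lower count against memory cells was 4 without germinal center replicate 2 or without memory replicate 2 or 3. The chaperone Hsp90b1 read 78.1, 235 and 429 in germinal center cells, against 1271 to 1799 in naive, 9233 to 13263 in plasma and 1150 to 2331 in memory cells. Its difference from the mean was -3.92 ± 0.36 (adjusted p = 1.86e-06), and its call against naive cells was lost with the actin ratio (adjusted p = 0.0532). Dnajc3 and Pdia4 stood apart as well, and lost their calls against naive and memory cells with that ratio. Of 24 plasma cell genes, 23 were lower than in plasma cells with 0 higher, among them Prdm1, at background in germinal center cells and 426 to 617 in plasma cells (at least 36.8-fold lower). Against naive cells 8 of the 24 were higher and 6 lower (7 and 4 with the actin ratio), where 8.37% of all genes were higher and 11.1% lower. Jchain, the joining chain of secreted antibodies, read 2027, 1419 and 1678 in germinal center cells, against 8.67 to 14.9 in naive, 10767 to 14630 in plasma and 28.5 to 489 in memory cells. Its germinal center values lay between those of plasma cells and the resting subsets (7.34 ± 0.73 from naive and 4.37 ± 0.68 from memory cells), and its call against plasma cells was lost with the actin ratio. Ckap4, a membrane protein of the endoplasmic reticulum, read 35.4 to 79.0 in germinal center cells, against 178 to 296 in naive, 2902 to 5355 in plasma and 933 to 1487 in memory cells (-4.40 ± 0.25).

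Of 34 genes of resting B cells, 28 were lower than in naive cells (median -1.92) and 28 lower than in memory cells (median -1.53), with 0 higher in either, and 24 were higher than in plasma cells (median 1.96). With the actin ratio 22 were lower than in naive cells. In that fit 20 were lower and 1 higher than in memory cells, and 22 higher than in plasma cells. Cnn3, an actin-binding protein, read 21.4 to 60.1 in germinal center cells, against 6348 to 7643 in naive, 15.0 to 25.8 in plasma and 3666 to 4101 in memory cells. Cd55, a complement regulator, read 16.5 to 30.6 in germinal center cells, against 1504 to 2132 in naive, 10.5 to 15.0 in plasma and 387 to 1218 in memory cells. Fcer2a, which encodes the CD23 used to gate naive cells, read 160, 299 and 333 in germinal center cells, against 1560 to 1808 in naive, 12.7 to 14.4 in plasma and 433 to 1242 in memory cells. Gpr183 and Cd1d1, which presents lipids, were the 2 that also stood apart from plasma cells. Cd1d1 read 33.9 to 61.1 in germinal center cells and 245 to 826 elsewhere (-3.10 ± 0.25).

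The metabolic lists were not alike. Of 44 respiratory chain genes, 17 were higher than the mean of the other subsets (2 with the actin ratio), 31 higher than in memory cells (15 with it) and 17 than in naive cells (1 with it, 11 without germinal center replicate 1 and 10 without naive replicate 1). Against plasma cells 2 were higher and 10 lower (5 without germinal center replicate 2 and 3 with the actin ratio). The list median against the mean was 0.58, and 0.55 with the actin ratio. Against memory cells it was 0.98 and 1.15, and against naive cells 0.57 and 0.72, in the same order. Cox6c, a cytochrome oxidase subunit, read 2039, 1673 and 1030 in germinal center cells, against 347 to 621 in naive, 676 to 1184 in plasma and 340 to 465 in memory cells. Its difference from memory cells was 1.90 ± 0.26 (adjusted p = 8.53e-05), and that from the mean (1.46 ± 0.22) was lost with the actin ratio. Of 22 glycolysis genes 4 were higher and 4 lower than the mean, where 10.8% of all genes were called in each direction. The higher count was 2 without germinal center replicate 3, and the lower count was 2 without germinal center replicate 1 and 0 with the actin ratio. Tpi1, a glycolytic isomerase, read 671 to 888 in germinal center and 644 to 770 in plasma cells, against 195 to 240 in naive and 248 to 295 in memory cells. The glucose transporter Slc2a3 read 78.4 to 259 in germinal center and 122 to 172 in plasma cells, against 584 to 791 in naive and 794 to 1040 in memory cells.

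The genes whose log2 profile over the 14 arrays was most like that of Rgs13 were Gcsam (Pearson r = 0.984), Sh3bgrl2 (0.982) and Lhfpl4 (0.978). For S1pr2 they were Flt3 (0.982), Gstt1 (0.981) and Rflna (0.962). The arrays fall into 4 subsets, so these values mainly repeat the difference between germinal center cells and the rest, and they are a description. Flt3, a cytokine receptor known from blood progenitors and dendritic cells, read 178, 230 and 238 in germinal center cells, against 16.2 to 19.5 in naive, 30.1 to 46.7 in plasma and 20.6 to 26.9 in memory cells (3.15 ± 0.14, adjusted p = 2.08e-09). The order of its subsets was that of S1pr2, with plasma second and naive lowest. Gstt1, a glutathione transferase, read 103 to 120 in germinal center cells and 11.1 to 28.5 elsewhere, and Rflna 195 to 248 and 14.9 to 35.8. Lhfpl4 was dim, with 19.8 to 23.0 in germinal center cells and background elsewhere (at least 1.56-fold higher than in plasma cells).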

How the data were processed

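RNA of sorted B cells was measured on 14 arrays, grouped by title into germinal center (3), naive (3), plasma (4) and memory (4). Each value the authors deposited is a linear intensity of 1 probe set on 1 array. RMA is named, without version or chip definition, in the submitters' processing notes. It is a method that normalizes across arrays before summarizing probes. Values were put on the log2 scale as deposited, without pseudocount or rescaling. Of 45101 probe sets, 64 are controls. Of the other 45037, 34945 carry 1 gene symbol in the platform annotation, 932 several and 9160 none. The reference gene table matched 34741 by Entrez number and changed 0 symbols. Each of 18193 genes took its brightest probe set by mean, and 9010 had more than 1. Background was the brightest of 27 bacterial controls that were not spiked in, 11 to 16.1 by array. The number of arrays limits the precision.

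Linear models with 4 subset means and 10 residual degrees of freedom were made by limma 3.58.1 under R 4.3.3 (lmFit, eBayes, two-sided, Benjamini-Hochberg within each of 4 contrasts). Genes were named by rule: the 12 highest and 12 lowest that stood apart without overlap, by their smallest difference, without immunoglobulin genes and placeholder symbols. Up to 4 called members of each of 22 lists by size, up to 2 against the list, fixed regulators and the 3 genes most like Rgs13 and S1pr2 were added. Members that stood apart were named in their lists. Genes and lists were chosen with earlier results of these data known. Alternatives covered scaling, floor, filter, probe set choice, variance model, fold threshold, comparator, actin ratio, replicate block and each array left out. Python 3.11.15 with pandas 2.3.3 made the tables and matplotlib 3.10.9 the figures. Promoters came from RefSeq (GRCm38.p6).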

Additional observations from a re-analysis of the deposited data

Results flagged for a closer look

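Among the named genes, 313 groups of 4 arrays with a level above background were examined for 1 array far from the other 3, and 10 had one. Chance gives about 1 in 20. On memory replicate 4, Sdc1 read 49.9 against 6.37 to 7.91 on the other memory arrays, Hells 86.1 against 36.4 to 40.3, and Kif23 59.0 against 47.4 to 48.5. On memory replicate 2 Rassf6 read 26.4 against 56.6 to 64.9, and on memory replicate 1 Cd83 read 1487 against 3079 to 3300. On plasma replicate 1 S1pr1 read 55.0 against 36.7 to 38.7, and on plasma replicate 3 Tet2 read 322 against 217 to 224. On plasma replicate 2 Ighm read 14594 against 20395 to 21776 and Tapbp 1297 against 1690 to 1768. On plasma replicate 4 Msh6 read 118 against 194 to 204. Groups of 3, which include the germinal center arrays, were not examined in this way.

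The gene comparisons left out 10092 probe sets without a single gene symbol. Of these, 60 stood apart as higher and 40 as lower in germinal center cells. Probe set 1419560_at read 1341, 1234 and 1210 in germinal center cells and 20.0 to 161 on the other 11 arrays (5.00, adjusted p = 2.5e-10, limma). Probe set 1447988_at read 328, 89.1 and 126 in germinal center cells and 8.57 to 19 elsewhere (3.64, adjusted p = 1.97e-06). Probe set 1445984_at read 138, 116 and 82.5 in germinal center cells and 8.16 to 16.6 elsewhere (3.54, adjusted p = 2.23e-08).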

How the results depend on the processing

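Of 167 named genes 161 were called against the mean of the other subsets, and 121 of the 167 kept their side of the threshold and direction in each of 28 other settings they were run in. The filter at a mean log2 of 5 kept 154 of the 167. With a test against a 2-fold difference 335 genes were higher and 291 lower than the mean, 366 and 381 against naive, 528 and 590 against plasma, 382 and 351 against memory cells, and 73 and 68 against each. Fitting the actin ratio too gave 1040 and 674 against the mean, 817 and 723 against naive, 1146 and 633 against memory cells, and 312 higher and 148 lower than each, of which 200 and 140 were among the 283 and 264. Averaging probe sets gave 174 higher and 166 lower than each. Without plasma cells in the comparator Irf8 turned to -0.60, Cxcr5 to -1.64, Btg1 to -1.13, Marchf1 to -1.09, H2-Ob to -1.15, Cd22 to -1.09 and Atp5g1 to 0.24. Btg1 was -0.16 with averaged probe sets, and Mad2l2 was 0.01 with the actin ratio. For other turned values the cause was not tested. Leaving out 1 array gave 1676 to 1983 higher and 1532 to 2022 lower than the mean, 265 to 357 and 242 to 373 than each, 1150 to 1738 and 1583 to 2215 than naive, 2021 to 2305 and 1840 to 2020 than plasma, and 1775 to 2241 and 1671 to 2165 than memory cells. Higher calls were 60.7% of those against the mean, 53.1% against naive, 64.4% against memory and 67.8% of genes standing apart with the actin ratio, beside 50.2%, 43%, 51.2% and 51.7% without it. Deviations of arrays from their subset mean had correlations of -0.32 to 0.25 in 19 same-numbered pairs, with 6 over 0.1. In 54 differently numbered pairs they were -0.35 to 0.35, with 16 over 0.1. Deviations within subsets of so few arrays depend on each other, so these values cannot decide whether the numbers pair the samples. A replicate block gave 1751 higher and 1868 lower than the mean, and 266 and 271 than each, of which 256 and 250 were shared with the fit without it. With few arrays and dim signal, a gene near background on all arrays could not show a difference.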

Other observations

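Some gene groups outside the lists above were chosen after their values were seen, so their counts are descriptions. Of 13 measured MHC class I genes and genes that load them, 7 were lower than in naive cells, 11 than in plasma cells and 7 than in memory cells, with 0 higher in any. Over all genes 11.1%, 11.2% and 11% were lower, in the same order. Pdia3, Calr and Erap1, of the endoplasmic reticulum, were called lower than in plasma cells and did not pass against naive or memory cells. The class I heavy chain gene H2-D1 read 157, 91.4 and 297 in germinal center cells, against 1123 to 1295 in naive, 1214 to 1914 in plasma and 793 to 1492 in memory cells (-2.96 ± 0.27, adjusted p = 2.1e-06, limma). H2-K1 read 1503, 358 and 1156 in germinal center cells and 2939 to 5719 elsewhere (-2.14 ± 0.32), B2m, their shared light chain, 438 to 1129 and 1744 to 4448 (-1.86 ± 0.26), and the loading factor Tapbp 207 to 552 and 783 to 1882 (-2.22 ± 0.25). H2-K1 and H2-D1 are close copies whose probes may share signal. With the actin ratio in the fit H2-K1 (also against the mean) and B2m lost their calls against naive and memory cells and Tapbp that against memory cells. Germinal center replicate 2, with the highest actin ratio, had the lowest H2-K1 and H2-D1 values.

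Of 17 measured genes of sterol synthesis, 15 were higher and 1 lower than in naive cells, and 13 higher and 0 lower than in memory cells. Over all genes 8.37% were higher and 11.1% lower than in naive cells, and 11.5% higher and 11% lower than in memory cells. Against plasma cells 7 were higher and 3 lower, where 12.6% of all genes were higher and 11.2% lower. Insig1, a member that is not an enzyme, was called in no comparison (0.37 ± 0.44 from the mean). Sqle, squalene epoxidase, read 209 to 460 in germinal center and 231 to 469 in plasma cells and did not pass there (-0.10 ± 0.28), and Nsdhl, a later enzyme, was lower than in plasma cells, with 102 to 198 in germinal center and 240 to 398 in plasma cells. Against the mean 12 were higher and 1, Ebp, lower (-1.62 ± 0.16), and Hmgcs1, Fdft1, Hsd17b7 and Dhcr7 stood apart as higher. Ebp read 23.3 to 33.2 in germinal center cells, against 50.2 to 64.9 in naive, 238 to 319 in plasma and 30.5 to 48.2 in memory cells. Hmgcs1, an early enzyme of the pathway, read 2972 to 4795 in germinal center cells, against 925 to 1280 in naive, 861 to 1062 in plasma and 778 to 1744 in memory cells. Dhcr7, which makes cholesterol in the last step of 1 branch, read 587 to 699 in germinal center cells, against 171 to 278 in naive, 178 to 234 in plasma and 115 to 165 in memory cells. Fdft1, squalene synthase, read 1293 to 2312 in germinal center cells and 251 to 661 elsewhere. Among 13 measured genes of annexins, S100 proteins and Ahnak, 7 were lower and 1 higher than the mean, where 10.8% of all genes were called in each direction. Ahnak, which is of neither family, was 1 of those lower (-2.70 ± 0.20), with 9.79 to 16.9 in germinal center cells and 17.2 to 542 elsewhere. Anxa5 read 34.7 to 85.6 in germinal center cells and 239 to 1464 elsewhere, whereas Anxa2, the partner of S100a10, read 450 to 1236 in germinal center cells, against 17.2 to 27.7 in naive, 214 to 363 in plasma and 256 to 859 in memory cells. Neat1, another nuclear noncoding RNA, was lower like Malat1, with 27.9 to 36.5 in germinal center cells and 78.1 to 459 elsewhere.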
